A study of Mus musculus with 18 samples.

Results

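The genes described here are 45 genes of DNA replication and S phase, a list set by gene symbol, and all 45 were found among the 24072 genes of the deposited expression table. They cover origin licensing, helicase activation, the DNA polymerases and primase, the sliding clamp and its loader, single-strand binding, Okazaki fragment maturation, deoxynucleotide supply, chromatin assembly and S phase entry. All 45 passed the filter on low values, which 12839 genes passed in all. RNA was measured in pro-B cells, the early precursors of B lymphocytes, cultured from mouse fetal liver. There were 3 libraries from Ebf1 knockout cells (Ebf1-KO), 3 from Pax5 knockout cells (Pax5-KO) and 3 from wild-type cells (WT), all on the C57BL6/J background. All cells had been expanded on OP9 stromal cells, a mouse stromal line, in medium with interleukin-7, FLT3 ligand and KIT ligand, each at 10 ng/ml. ATAC-seq, which reads open chromatin by transposase cutting, was run on another 9 libraries of the same 3 genotypes. The sources used here give neither the deleted part of either gene nor the age of the fetuses, and do not say whether replicates came from separate fetuses or cultures, so p-values measure the spread between these libraries, which may be technical.

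Before S phase, the origin recognition complex, Cdc6 and Cdt1 load the ring-shaped MCM helicase onto DNA. Cdc45, the GINS complex and Mcm10 then switch the helicase on. Polymerase alpha with primase starts each strand, the clamp loader places the clamp PCNA, and polymerases delta and epsilon copy the DNA while Fen1 and Lig1 join the Okazaki fragments of the lagging strand. E2F transcription factors, held back by the retinoblastoma family of pocket proteins, drive the transcription of many of these genes. Pro-B cells divide rapidly in response to interleukin-7, and the transcription factors Ebf1 and Pax5 specify and maintain the B cell fate.

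The 9 RNA libraries held 15639355 to 63599123 exon reads, which were 60.48 to 69.81% of the mapped reads in Ebf1-KO, 55.46 to 71.39% in Pax5-KO and 46.99 to 59.34% in WT. Levels below are counts per 1000000 exon reads (CPM) after TMM scaling, which equalises the bulk of genes between libraries, and fold changes are log2 of CPM + 0.1. On the scaling of the deposited table, to all mapped reads, the median of all genes stood 0.31 above 0 (log2) in Ebf1-KO against WT and 0.28 above 0 in Pax5-KO against WT, where TMM scaling gave -0.01 and 0.02. Fold changes here are therefore relative to the median gene. Ebf1 itself averaged 223.7 ± 5.85 CPM in Ebf1-KO, 240.0 ± 12 CPM in Pax5-KO and 756.7 ± 44.9 CPM in WT (SD, n = 3 each). Its difference between the knockouts was not called (-0.10, limma adjusted p = 0.298), so the Ebf1 level does not check the Ebf1-KO label, and whether these reads lie outside the deleted part was not tested. Pax5 averaged 1.99 ± 0.576 CPM in Ebf1-KO, 17.2 ± 0.994 CPM in Pax5-KO and 291.0 ± 12.3 CPM in WT. The Ebf1-KO libraries also stood apart in sex-linked transcripts: Xist was at 5801 to 7711 CPM in Ebf1-KO, 0.258 to 5.95 CPM in Pax5-KO and 2.69 to 8.09 CPM in WT. The Y-linked Ddx3y was at 0.0731 to 0.432 CPM in Ebf1-KO, 99.26 to 178.4 CPM in Pax5-KO and 125.9 to 139.6 CPM in WT, so effects of the Ebf1 genotype and of fetal sex cannot be told apart. The 12 pro-B marker genes summed to 536 to 607 CPM in Ebf1-KO, 1370 to 1670 CPM in Pax5-KO and 5040 to 5990 CPM in WT, with Vpreb3 at 0 in every Ebf1-KO library. That list includes Ebf1 and Pax5 themselves, and Ebf1 alone was at 217.0 to 227.3 CPM in Ebf1-KO. Under both scalings 11 of the 12 were called lower in each knockout, with TMM medians of -9.1 in Ebf1-KO and -2.6 in Pax5-KO. Markers of other cells were lower in sum than this pro-B list in each group, which does not show that the knockout cells kept a pro-B state. The 9 T and NK cell markers summed to 167 to 213 CPM in Ebf1-KO, 17.7 to 23.0 CPM in Pax5-KO and 1.88 to 2.24 CPM in WT, the 8 myeloid markers to 58.5 to 68.0, 14.4 to 17.7 and 1.38 to 3.59 CPM in the same order of groups, and the 11 stroma markers to 138 to 147, 16 to 39.4 and 30.2 to 58.0 CPM. The stroma sum does not describe most of its list. Of the 7 stroma markers tested, 2 were called higher and 1 lower in Ebf1-KO against WT, and 5 lay below 0 (median -1.46). The 7 erythroid markers stayed at or under 6.27 CPM and the 8 hepatocyte markers at or under 0.64 CPM in sum in every library, with Alb at 0 throughout. The part of these cells and of sex in the results below was not tested, and in bulk samples fewer cycling cells and less RNA per cell cannot be told apart.

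Promoters were searched for E2F words and the CCAAT box, which the list did not use, and no test was run. RefSeq promoter windows of GRCm38.p6, running from 250 bases before to 50 bases after the start site, were available for 37 of the 45 genes. Of these, 13 (35.1%) held at least 1 of 4 E2F words (TTTCCCGC, TTTGGCGC, TTTCGCGC or TTTGCCGC, on either strand), against 2.6% of all 27025 genes with such a window. The CCAAT box, on either strand, was in 23 of 37 (62.2%), against 41.1% of all genes, and 1 of the 43 member windows had overlapping matches of an E2F word and CCAAT. The 13 genes with an E2F word were Mcm3, Mcm5, Mcm6, Mcm7, Cdc6, Cdt1, Gins3, Orc1, Rfc3, Pola1, Pold1, Pole2 and Lig1. Mcm4, Gins1, Gins2, Gins4, Rfc2, Prim2, Pole and Ccne2 were not matched. The windows of Mcm3 (chr1:20820263-20820562, minus strand) and Rfc3 (chr5:151651159-151651458, minus strand) are shown because each holds 2 E2F words and both genes fell in both knockouts with TMM. On the deposited scaling Mcm3 was called in neither knockout and Rfc3 in Ebf1-KO only. Mcm6 holds 3 E2F words and was called in neither knockout, and Mcm5 and Mcm7 hold 2 each and were called lower in Ebf1-KO only. The windows shown are printed along the gene's strand, with the start site after base 250. Capitals mark the E2F words.
Mcm3 promoter: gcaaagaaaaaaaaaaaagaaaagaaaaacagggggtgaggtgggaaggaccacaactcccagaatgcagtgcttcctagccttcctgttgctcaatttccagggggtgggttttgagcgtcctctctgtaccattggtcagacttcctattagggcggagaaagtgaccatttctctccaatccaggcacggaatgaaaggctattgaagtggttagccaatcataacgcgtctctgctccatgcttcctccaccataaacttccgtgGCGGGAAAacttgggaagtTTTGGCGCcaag
Rfc3 promoter: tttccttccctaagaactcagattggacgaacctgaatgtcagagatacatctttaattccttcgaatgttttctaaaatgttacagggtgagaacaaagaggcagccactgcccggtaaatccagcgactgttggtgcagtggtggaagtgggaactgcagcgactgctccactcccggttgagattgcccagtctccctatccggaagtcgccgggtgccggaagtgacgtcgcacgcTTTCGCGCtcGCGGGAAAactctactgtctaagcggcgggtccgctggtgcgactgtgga
Among the 13 genes with an E2F word, 9 were lower and 1 higher in Ebf1-KO than in WT, with a median log2 fold change of -0.38, and among the 24 with a window and no such word 13 were lower and 2 higher, with a median of -0.25. In Pax5-KO against WT, 6 of the 13 were lower and 1 higher (median -0.17), and 8 of the 24 were lower and 0 higher (median -0.15). The shares of all genes called lower and higher were 28.1% and 30% (Ebf1-KO) and 23.8% and 26% (Pax5-KO). Scaled as deposited, Rfc3, Pola1, Pold1 and Lig1 of the genes with a word were lower in Ebf1-KO, and Cdc6 and Pole2 higher. For Pax5-KO, Lig1 was then lower and Pole2, Cdc6 and Cdt1 higher. Of the genes without a word, Pcna, Rrm2 and Tyms were then lower in Ebf1-KO, and Ccne1 and E2f1 higher. For Pax5-KO, Pcna and Rrm2 were lower and Fen1 higher. A match is a description of these letters only.

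Most of the replication genes were lower in Ebf1-KO than in WT, the largest falls being those of Lig1, Rrm2, Pold1 and Tyms, while Ccne1, Pole2 and E2f1 were higher. By limma with Benjamini-Hochberg adjustment over all genes (adjusted p under 0.05), 27 of the 45 fell and 3 rose, with a median log2 fold change of -0.30. Over all 12839 genes, 28.1% were called lower and 30% higher in the same comparison, with a median of -0.01. On the deposited scaling the direction of the group was lost: 7 members were lower and 6 higher with a median of 0.03, where all genes had 14.4% lower and 40.8% higher. Below the median gene lay 36 of the 45, and 36 lay below 0 with TMM. A scaling shifts all genes of a library nearly alike, so this count could hardly change and is no separate evidence. In 29 of the 45 genes all Ebf1-KO libraries were below all WT libraries and in 6 all were above, where 32.4% and 34.0% of all genes did so. With replicate number as a block, 30 were lower and 4 higher, where 31.9% and 32.7% of all genes were. The calls of Lig1, Rrm2, Pold1, Tyms, Rfc3, Pola1 and Pcna (lower) and of Ccne1, Pole2 and E2f1 (higher) were made under both scalings.

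Fewer of the 45 genes changed in Pax5-KO against WT: 17 fell and 1 rose, with a median of -0.15, where 23.8% of all genes were called lower and 26% higher with a median of 0.02. Scaled as deposited, 3 members were lower (Rrm2, Lig1 and Pcna) and 4 higher (Pole2, Cdc6, Cdt1 and Fen1) with a median of 0.13, where all genes had 11.9% lower and 34.7% higher. Below the median gene lay 35 of the 45, again a count that a change of scaling could hardly alter. All Pax5-KO libraries were below all WT libraries in 21 of the genes and above in 4, where 27.1% and 30.2% of all genes were so. With the replicate block 20 were lower and 2 higher, where 27.6% and 29.7% of all genes were. The 17 were Mcm3, Cdc45, Gins1, Gins3, Pcna, Rfc3, Rfc4, Pola1, Prim1, Pold1, Pole, Rrm1, Rrm2, Tyms, Lig1, Rpa1 and Ccne2, and the 1 was Pole2. Both knockouts are set against the same WT libraries, so their calls are not independent of each other. The plot of all 45 fold changes shows these calls by role. Counts per role follow, each to be read against the share of all genes called lower. That share was 28.1% for the Ebf1 knockout and 23.8% for the Pax5 knockout, or 14.4% and 11.9% on the deposited scaling. Each role holds only 2 to 11 genes and none was tested against these shares, so the counts do not show a fall particular to any role.

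**Figure D1:**
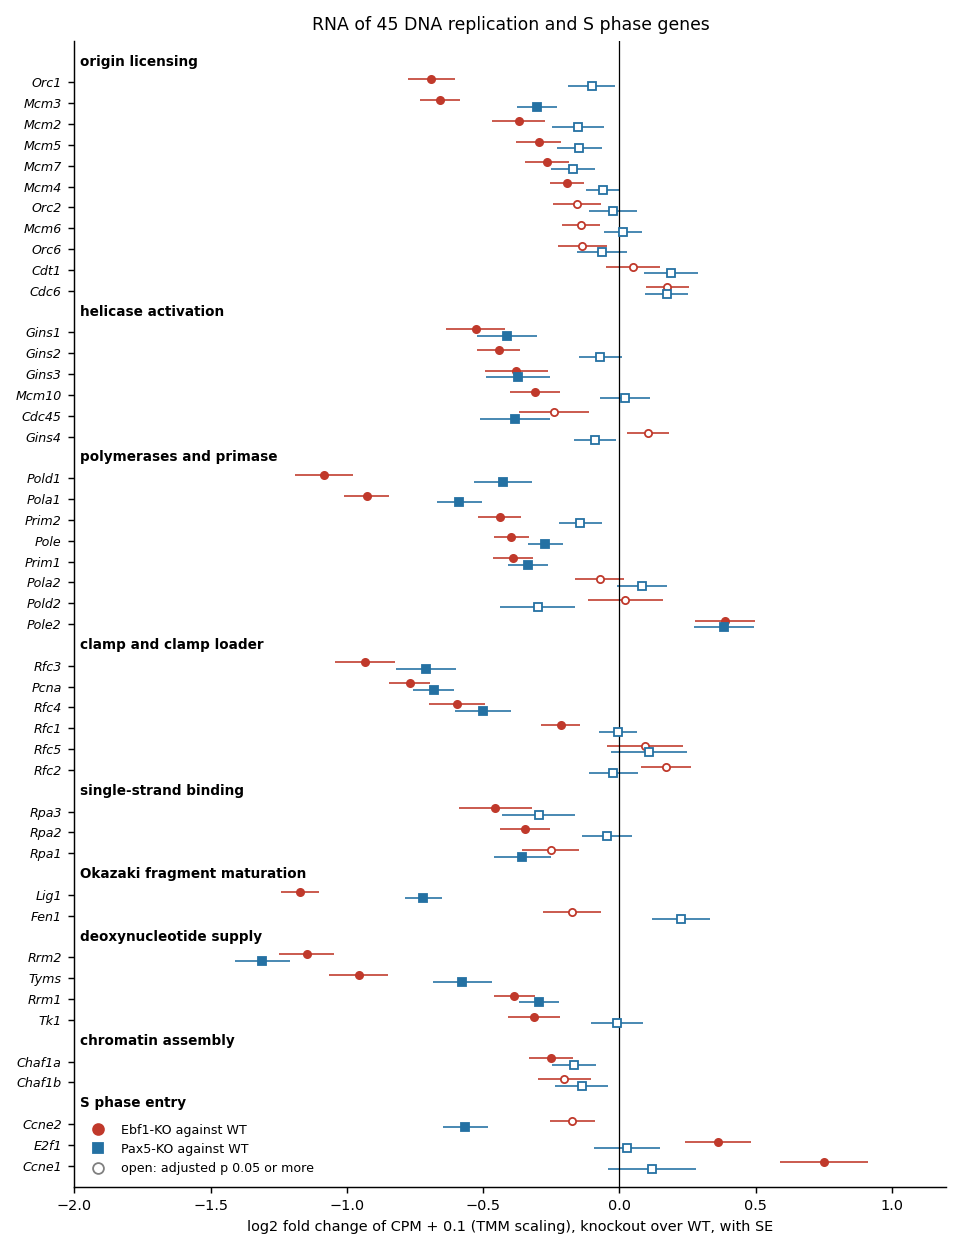
Log2 fold change of each of the 45 genes (x axis, CPM + 0.1, TMM scaling, with SE) in Ebf1-KO against WT (circles) and Pax5-KO against WT (squares), grouped by role down the page, with open symbols for an adjusted p of 0.05 or more. Most points lie left of 0, with 27 called lower in Ebf1-KO and 17 in Pax5-KO; on the deposited scaling, 7 and 3 were.

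Of the 11 origin licensing genes, 6 were called lower in Ebf1-KO and 0 higher (median -0.19), and in Pax5-KO only Mcm3 was called, as lower (median -0.06); on the deposited scaling the medians were 0.14 and 0.21, above 0, and Orc1 and the MCM genes were called in neither comparison. Orc1, the largest subunit of the origin recognition complex, had 31.7, 28.5 and 32.5 CPM in Ebf1-KO, 46.9, 44.1 and 48.5 CPM in Pax5-KO, and 47.8, 50.5 and 51.3 CPM in WT. The Ebf1-KO libraries were below all others for Orc1, while Pax5-KO and WT libraries overlapped. Its log2 fold change was -0.69 ± 0.09 (SE) in Ebf1-KO against WT (limma adjusted p = 2.18e-05), -0.10 ± 0.09 in Pax5-KO against WT (limma adjusted p = 0.358) and -0.59 ± 0.09 in Ebf1-KO against Pax5-KO (limma adjusted p = 0.000139). Orc2 and Orc6, other subunits of the complex, were not called (-0.16 and -0.14 in Ebf1-KO against WT), except that Orc2 passed there without WT replicate 1 (limma adjusted p = 0.0211).

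Of the 6 subunits of the MCM ring, the helicase core, Mcm3 fell most. Mcm3 averaged 63.4% of its WT level in Ebf1-KO and 81.1% in Pax5-KO, with log2 fold changes of -0.66 and -0.30. Mcm2 had 182.4, 178.3 and 209.0 CPM in Ebf1-KO, 208.6, 203.3 and 252.7 CPM in Pax5-KO, and 231.8, 251.3 and 251.9 CPM in WT. Mcm5 had 140.3, 122.3 and 149.4 CPM in Ebf1-KO, 152.1, 144.3 and 159.2 CPM in Pax5-KO, and 166.8, 163.7 and 173.9 CPM in WT. Every Ebf1-KO library was below every WT library for both genes. Mcm2 changed by -0.37 ± 0.10 (limma adjusted p = 0.00563) and Mcm5 by -0.30 ± 0.08 (limma adjusted p = 0.0092) in Ebf1-KO against WT, while in Pax5-KO neither passed (-0.15 for each). Mcm7 (-0.27) and Mcm4 (-0.19) were also called lower in Ebf1-KO, and Mcm6 was not (-0.14). On the deposited scaling the fold changes of Mcm4, Mcm5 and Mcm7 turned positive, at 0.14, 0.03 and 0.06, and quantile normalization ended the calls of Mcm4 and Mcm7 (limma adjusted p = 0.24 and 0.0549). With replicate number as a block, Mcm7 was also lower in Pax5-KO than in WT (-0.17, limma adjusted p = 0.0224) and Mcm2 lower in Ebf1-KO than in Pax5-KO (-0.22, limma adjusted p = 0.0193). Leaving out 1 library ended the Ebf1-KO call of Mcm4 (without Ebf1-KO replicate 1 or 2 or WT replicate 2 or 3, limma adjusted p 0.054 to 0.0805), of Mcm5 (without Ebf1-KO replicate 2, 0.0547) and of Mcm7 (without Ebf1-KO replicate 2, 0.0777, or WT replicate 3, 0.066), and Mcm6 passed without Ebf1-KO replicate 3 (0.0431). Without Ebf1-KO replicate 3, Mcm2 and Mcm6 were also lower in Ebf1-KO than in Pax5-KO (limma adjusted p = 0.0457 and 0.0442), and without Pax5-KO replicate 3 Mcm2 was lower in Pax5-KO than in WT (0.0314).

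The loading factors did not fall. Cdc6, which recruits the helicase, had 60.5, 57.6 and 63.3 CPM in Ebf1-KO, 61.4, 60.4 and 59.1 CPM in Pax5-KO, and 51.9, 51.4 and 57.3 CPM in WT. Both knockouts were above every WT library, though narrowly, and the log2 fold changes of 0.18 and 0.17 did not pass (limma adjusted p = 0.0733 and 0.0867). With the replicate block Cdc6 passed in Ebf1-KO (limma adjusted p = 0.0422). Cdt1, its partner in loading, had 62.4, 51.3 and 55.5 CPM in Ebf1-KO, 60.0, 58.6 and 67.6 CPM in Pax5-KO, and 50.2, 54.4 and 58.5 CPM in WT. Its libraries overlapped between Ebf1-KO and WT but not between Pax5-KO and WT, and neither log2 fold change (0.05 and 0.19) passed. On the deposited scaling Cdc6 was called higher in both knockouts (0.50 and 0.45) and Cdt1 in Pax5-KO (0.46).

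Of the 6 helicase activation genes, 4 were called lower in Ebf1-KO (median -0.35) and 3 in Pax5-KO (median -0.23), with none called lower on the deposited scaling (medians -0.02 and 0.04) and Gins4 called higher in Ebf1-KO (0.43). Cdc45, the factor that travels with the helicase, had 62.1, 52.0 and 62.0 CPM in Ebf1-KO, 62.0, 47.0 and 51.1 CPM in Pax5-KO, and 80.4, 62.1 and 65.9 CPM in WT. In each genotype replicate 1 was the highest. Cdc45 was called in Pax5-KO (-0.38 ± 0.13, limma adjusted p = 0.0262) but not in Ebf1-KO (-0.24 ± 0.13, limma adjusted p = 0.13), where the replicate block gave an adjusted p of 0.0146 by limma; the direct comparison was not called (0.14). Gins1, a GINS subunit, had 26.1, 21.2 and 26.2 CPM in Ebf1-KO, 26.4, 26.4 and 26.3 CPM in Pax5-KO, and 37.1, 31.7 and 36.8 CPM in WT. All knockout libraries were below all WT libraries, with log2 fold changes of -0.53 ± 0.11 (limma adjusted p = 0.00128) and -0.41 ± 0.11 (limma adjusted p = 0.00775), and 24.5% of its exonic bases overlap another annotated gene. Gins3 was called lower in both (-0.38 and -0.37). Gins2 (-0.44) and Mcm10 (-0.31) were called lower in Ebf1-KO, also against Pax5-KO (-0.37 and -0.33). Of the Gins2 exonic bases 11.4% overlap Gse1 on the other strand, which was at -0.13 in Ebf1-KO and called lower in Pax5-KO (-0.38). Gins4 was called in neither knockout (0.11 and -0.09), though it was higher in Ebf1-KO than in Pax5-KO with the block (0.20, limma adjusted p = 0.036), with quantile normalization (limma adjusted p = 0.0433) and by DESeq2 (adjusted p = 0.0309). Leaving out 1 library ended the Ebf1-KO calls of Gins3 (without Ebf1-KO replicate 2, limma adjusted p = 0.0783) and Mcm10 (without Ebf1-KO replicate 2, 0.0623, or WT replicate 2, 0.0594; against Pax5-KO without Ebf1-KO replicate 2, 0.0619). It also ended the Pax5-KO calls of Gins3 (without Pax5-KO replicate 2, 0.0724, or WT replicate 2, 0.0611) and Cdc45 (without Pax5-KO replicate 2, 0.112, or 3, 0.0702, or WT replicate 1, 0.112), and Gins4 passed against Pax5-KO without Pax5-KO replicate 1 (0.0407).

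Of the 8 polymerase and primase genes, 5 were lower and 1 higher in Ebf1-KO (median -0.39) and 4 lower and 1 higher in Pax5-KO (median -0.29), against 2 and 0 lower and 1 higher in each on the deposited scaling (medians -0.07 and -0.01). Pold1, the catalytic subunit of polymerase delta, had 35.1, 33.3 and 38.1 CPM in Ebf1-KO, 53.8, 51.0 and 63.6 CPM in Pax5-KO, and 81.7, 68.0 and 76.5 CPM in WT. The 3 genotypes did not overlap. Pold1 fell by 1.08 ± 0.11 on the log2 scale in Ebf1-KO (limma adjusted p = 2.3e-06) and by 0.43 ± 0.11 in Pax5-KO (limma adjusted p = 0.00508), and was lower in Ebf1-KO than in Pax5-KO (-0.66 ± 0.11, limma adjusted p = 0.000298). Its partner Pold2 was not called (0.02 in Ebf1-KO and -0.30 in Pax5-KO), although with the block it was lower in Pax5-KO than in WT (limma adjusted p = 0.00762) and higher in Ebf1-KO than in Pax5-KO (0.32, limma adjusted p = 0.00622), and without Pax5-KO replicate 3 both passed (limma adjusted p = 0.0152 and 0.0141). Quantile normalization also called Pold2 lower in Pax5-KO than in WT (limma adjusted p = 0.0456).

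Pola1, the catalytic subunit of polymerase alpha and an X-linked gene, had 120.9, 130.4 and 138.5 CPM in Ebf1-KO, 164.0, 176.5 and 152.9 CPM in Pax5-KO, and 232.3, 248.1 and 260.5 CPM in WT. The genotypes did not overlap here either, with the Ebf1-KO libraries, which carry the Xist signal, lowest. Pola1 changed by -0.93 ± 0.08 in Ebf1-KO (limma adjusted p = 9.46e-07) and -0.59 ± 0.08 in Pax5-KO (limma adjusted p = 7.64e-05), while its accessory partner Pola2 was not called (-0.07 and 0.08). Pole, the catalytic subunit of polymerase epsilon, had 179.1, 173.1 and 178.2 CPM in Ebf1-KO, 200.4, 191.4 and 186.5 CPM in Pax5-KO, and 228.4, 238.7 and 231.0 CPM in WT. All libraries of both knockouts were below WT, by -0.40 ± 0.06 (limma adjusted p = 0.000186) and -0.27 ± 0.06 (limma adjusted p = 0.00368) on the log2 scale; on the deposited scaling these were -0.07 and 0.00, not called. Pole2, its second subunit, went the other way, with 94.2, 69.0 and 77.3 CPM in Ebf1-KO, 81.2, 76.2 and 80.5 CPM in Pax5-KO, and 55.8, 61.4 and 65.4 CPM in WT. Every knockout library was above every WT library, and the rises of 0.39 ± 0.11 (limma adjusted p = 0.00939) and 0.38 ± 0.11 (limma adjusted p = 0.0119) held under both scalings. The primase genes fell in Ebf1-KO (Prim1 -0.39, Prim2 -0.44), and in Pax5-KO Prim1 was called (-0.33) and Prim2 was not (-0.14).

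The sliding clamp Pcna was the most abundant of the 45 genes per length in all 3 genotypes, at 456.5 CPM per kb in Ebf1-KO, 485.6 in Pax5-KO and 777.5 in WT. Pcna had 553.6, 562.7 and 598.2 CPM in Ebf1-KO, 562.0, 654.7 and 607.3 CPM in Pax5-KO, and 993.4, 953.3 and 973.5 CPM in WT. The knockouts overlapped each other and lay well below WT, at -0.77 ± 0.08 (limma adjusted p = 2.23e-06) and -0.68 ± 0.08 (limma adjusted p = 9.54e-06). With the 5 subunits of the clamp loader, 4 of the 6 clamp genes were lower in Ebf1-KO (median -0.41) and 3 in Pax5-KO (median -0.26), against 2 and 1 on the deposited scaling (medians -0.08 and 0.01). Rfc3 had 17.8, 16.5 and 19.8 CPM in Ebf1-KO, 18.6, 21.6 and 23.0 CPM in Pax5-KO, and 34.2, 35.0 and 33.9 CPM in WT. The knockouts overlapped and lay below WT, Ebf1-KO at 52.4% and Pax5-KO at 61.3% of its mean (-0.93 ± 0.11, limma adjusted p = 1.36e-05, and -0.71 ± 0.11, limma adjusted p = 0.000185). Rfc4 changed by -0.60 and -0.50, and 13.2% of its exonic bases overlap Eif4a2 on the other strand, which averaged 559.3 CPM in Ebf1-KO, 649.0 CPM in Pax5-KO and 752.2 CPM in WT (-0.43 and -0.26, not called; with the block the first passed, limma adjusted p = 0.00672). Rfc1, the large subunit, was called lower in Ebf1-KO (-0.22, against 0.11 on the deposited scaling and an adjusted p of 0.107 by limma with quantile normalization) and was at -0.01 in Pax5-KO, while Rfc2 (0.17 and -0.02) and Rfc5 (0.10 and 0.11) were not called. Leaving out Ebf1-KO replicate 1 or 2 or WT replicate 2 or 3 ended the Ebf1-KO call of Rfc1 (limma adjusted p 0.0597 to 0.0924), and leaving out Ebf1-KO replicate 1 or 2, Pax5-KO replicate 2 or 3 or WT replicate 2 ended that against Pax5-KO (0.0507 to 0.128), where Rfc3 passed without Pax5-KO replicate 1 (0.0487). Scaled as deposited, Pcna stayed lower in both knockouts and Rfc3 in Ebf1-KO only, and Rfc2 was higher in Ebf1-KO (0.50).

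RPA coats single-stranded DNA, and 2 of its 3 subunits were called lower in Ebf1-KO and 1 in Pax5-KO, against none on the deposited scaling. Its middle subunit Rpa2 had 65.0, 61.4 and 68.8 CPM in Ebf1-KO, 85.3, 73.9 and 82.0 CPM in Pax5-KO, and 88.1, 74.4 and 86.4 CPM in WT. The Ebf1-KO libraries lay below all the others, and Rpa2 was lower in Ebf1-KO than in WT (-0.35 ± 0.09, limma adjusted p = 0.00623) and than in Pax5-KO (-0.30 ± 0.09, limma adjusted p = 0.0194). Rpa3 was called lower in Ebf1-KO (-0.46) and Rpa1 in Pax5-KO (-0.36). With the block Rpa1 also passed in Ebf1-KO (-0.25, limma adjusted p = 0.00489) and Rpa3 in Pax5-KO (-0.30, limma adjusted p = 0.00959). Single libraries decided several of these: Rpa3 was not called in Ebf1-KO without Ebf1-KO replicate 1 or WT replicate 3 (limma adjusted p = 0.0515 and 0.0536), Rpa1 was not called in Pax5-KO without Pax5-KO replicate 1 or WT replicate 3 (0.0505 and 0.0629), and Rpa2 was not called against Pax5-KO without Ebf1-KO replicate 2 or Pax5-KO replicate 1 (0.0841 and 0.065). In turn Rpa1 passed in Ebf1-KO without Ebf1-KO replicate 3 or Pax5-KO replicate 3 (0.0107 and 0.0475) and Rpa3 in Pax5-KO without Pax5-KO replicate 3 (0.0368).

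Lig1, the ligase that seals Okazaki fragments, had the largest fall of the 45 genes in Ebf1-KO. Lig1 had 133.1, 128.8 and 144.4 CPM in Ebf1-KO, 181.7, 183.1 and 190.6 CPM in Pax5-KO, and 310.6, 295.6 and 308.3 CPM in WT. The genotypes did not overlap, and the means stood at 44.4% (Ebf1-KO) and 60.7% (Pax5-KO) of WT. The log2 fold changes were -1.17 ± 0.07 (limma adjusted p = 1.97e-08) and -0.72 ± 0.07 (limma adjusted p = 2.8e-06), and -0.45 ± 0.07 in Ebf1-KO against Pax5-KO (limma adjusted p = 0.000187). Fen1, the flap nuclease of the same step, was not called against WT (-0.18 and 0.23) and was lower in Ebf1-KO than in Pax5-KO (-0.40, limma adjusted p = 0.00967; without Ebf1-KO replicate 2, 0.0519). With the block Fen1 was higher in Pax5-KO than in WT (limma adjusted p = 0.0274), and without Ebf1-KO replicate 3 it was lower in Ebf1-KO than in WT (-0.28, limma adjusted p = 0.0385).

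All 4 genes of deoxynucleotide supply were lower in Ebf1-KO (median -0.67) and 3 of the 4 in Pax5-KO (median -0.43); on the deposited scaling 2 and 1 were (medians -0.34 and -0.16). Rrm2, the S phase subunit of ribonucleotide reductase, had 171.1, 181.8 and 201.6 CPM in Ebf1-KO, 159.1, 164.7 and 171.0 CPM in Pax5-KO, and 348.8, 437.0 and 448.6 CPM in WT. Both knockouts lay below every WT library, at 44.9% and 40.1% of the WT mean, with log2 fold changes of -1.15 ± 0.10 (limma adjusted p = 8.31e-07) and -1.31 ± 0.10 (limma adjusted p = 3.69e-07). Rrm1, the large subunit, changed by -0.39 and -0.29; in Pax5-KO quantile normalization ended its call (limma adjusted p = 0.0652). Tyms, which makes thymidylate, had 64.5, 74.1 and 83.9 CPM in Ebf1-KO, 86.4, 93.3 and 109.8 CPM in Pax5-KO, and 143.3, 141.9 and 144.3 CPM in WT. Its 3 genotypes did not overlap, with log2 fold changes of -0.96 ± 0.11 (limma adjusted p = 8.88e-06), -0.58 ± 0.11 (limma adjusted p = 0.000786) and, between the knockouts, -0.38 ± 0.11 (limma adjusted p = 0.0139; without Ebf1-KO replicate 1, 0.0593). Tk1, the thymidine salvage kinase, had 33.4, 37.2 and 35.8 CPM in Ebf1-KO, 42.7, 41.3 and 47.3 CPM in Pax5-KO, and 48.3, 42.2 and 41.7 CPM in WT. Only its Ebf1-KO libraries stood apart (-0.31 ± 0.10 against WT, limma adjusted p = 0.0137, and -0.30 ± 0.10 against Pax5-KO, limma adjusted p = 0.0233), and 18.6% of its exonic bases overlap Afmid on the other strand. The Tk1 call against WT was lost without Ebf1-KO replicate 1 or WT replicate 1 (limma adjusted p = 0.0508 and 0.0529) and that against Pax5-KO without Ebf1-KO replicate 1 or 3 or Pax5-KO replicate 3 (0.0505 to 0.0792), and its fold change against WT was 0.02 on the deposited scaling.

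**Figure D2:**
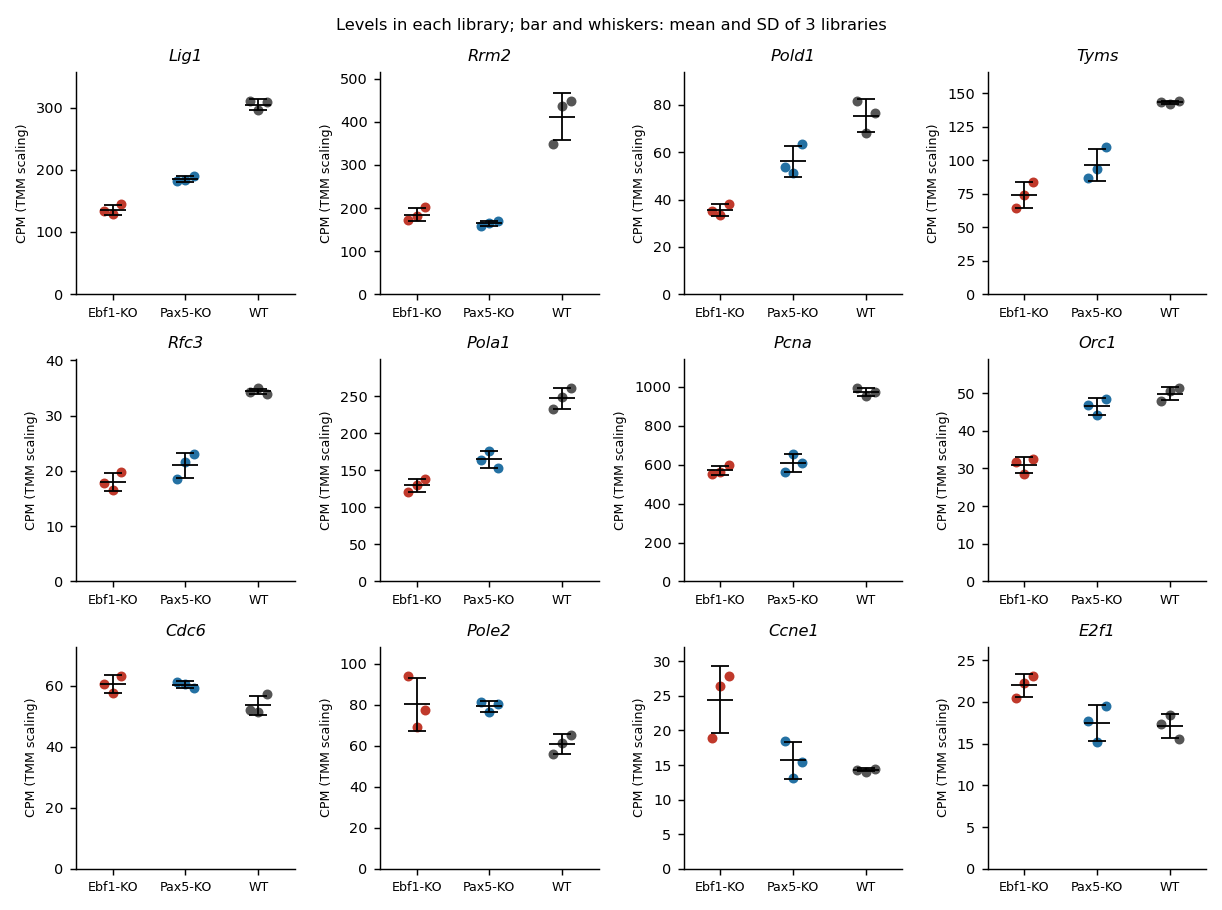
CPM (y axis, TMM scaling) in each of the 9 RNA libraries for 12 of the genes, with the mean and SD of 3 libraries per genotype, Ebf1-KO, Pax5-KO and WT from left to right. Lig1, Pold1, Tyms and Pola1 step down without overlap, with Lig1 at 44.4% (Ebf1-KO) and 60.7% (Pax5-KO) of WT, while Pole2 is above WT in both knockouts and Ccne1 and E2f1 are highest in Ebf1-KO.

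The chromatin assembly factor CAF-1, which places histones behind the fork, had 1 of its 2 subunits called in Ebf1-KO and 0 in Pax5-KO. Its large subunit Chaf1a had 83.9, 86.2 and 90.7 CPM in Ebf1-KO, 101.5, 86.9 and 88.5 CPM in Pax5-KO, and 102.1, 101.1 and 106.9 CPM in WT. The Ebf1-KO libraries were below all WT libraries (-0.25 ± 0.08, limma adjusted p = 0.0177), while Pax5-KO overlapped WT (-0.17, limma adjusted p = 0.104). In the deposited scaling the first was 0.08, and it was not called without Ebf1-KO replicate 1 or 2 or WT replicate 3 (limma adjusted p 0.0567 to 0.0656); without Pax5-KO replicate 1 the second passed (0.0298). Chaf1b was not called (-0.20 and -0.14), except in Ebf1-KO without Ebf1-KO replicate 3 (limma adjusted p = 0.0273). Of the Chaf1a exonic bases, 18.7% overlap Ubxn6 on the other strand, which was itself higher in Ebf1-KO (0.32).

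Of the 3 regulators of S phase entry, Ccne1 and E2f1 were higher in Ebf1-KO and Ccne2 was lower in Pax5-KO. On the deposited scaling Ccne1 (1.07) and E2f1 (0.69) were also called higher in Ebf1-KO against WT. Ccne2 in Pax5-KO against WT was not called there (-0.29, limma adjusted p = 0.126). Ccne1, a cyclin that activates Cdk2 at the start of S phase, had 18.9, 26.5 and 27.9 CPM in Ebf1-KO, 18.5, 13.1 and 15.4 CPM in Pax5-KO, and 14.4, 14.1 and 14.5 CPM in WT. All Ebf1-KO libraries were above all others, the closest pair being Ebf1-KO replicate 1 and Pax5-KO replicate 1, and Ccne1 rose by 0.75 ± 0.16 against WT (limma adjusted p = 0.0017) and 0.63 ± 0.16 against Pax5-KO (limma adjusted p = 0.00792). In Pax5-KO against WT its libraries overlapped (0.12, limma adjusted p = 0.57). Ccne2, the other E cyclin, had 61.3, 68.9 and 67.1 CPM in Ebf1-KO, 47.1, 54.3 and 49.0 CPM in Pax5-KO, and 72.8, 75.8 and 73.6 CPM in WT. The 3 genotypes did not overlap, and Ccne2 was lowest in Pax5-KO (-0.57 ± 0.08 against WT, limma adjusted p = 0.000111). In Ebf1-KO it was not called against WT (-0.17 ± 0.08, limma adjusted p = 0.0924; with the block 0.0369) and was higher than in Pax5-KO (0.39 ± 0.08, limma adjusted p = 0.00224). Of the Ccne2 exonic bases, 52.3% overlap Ints8 on the other strand, and no source used here says whether the counting used strand; Ints8 itself was at -0.06 and 0.02.

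E2f1, an activator of S phase genes, had 20.5, 22.2 and 23.2 CPM in Ebf1-KO, 17.7, 15.2 and 19.5 CPM in Pax5-KO, and 17.3, 18.4 and 15.6 CPM in WT. The Ebf1-KO libraries were above all the others, with log2 fold changes of 0.36 ± 0.12 against WT (limma adjusted p = 0.0225) and 0.33 ± 0.12 against Pax5-KO (limma adjusted p = 0.0459), and Pax5-KO and WT overlapped (0.03). The first call was lost without Ebf1-KO replicate 2 or 3 or WT replicate 3 (limma adjusted p 0.0614 to 0.0919). The second was lost without 7 of the 9 libraries, all but Ebf1-KO replicate 1 and Pax5-KO replicate 3 (0.0538 to 0.187), with no filter on low values (0.0512), on the 2 groups alone (0.0703) and on the deposited scaling.

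In the direct comparison of Ebf1-KO with Pax5-KO, 13 of the 45 genes were lower and 3 higher (median -0.12), where 19.6% of all genes were lower and 20.3% higher (median -0.01). In 18 of the genes all Ebf1-KO libraries were below all Pax5-KO libraries and in 6 above, where 24.5% and 25.2% of all genes were so. With the replicate block 14 were lower and 5 higher, with Gins4 and Pold2 among the higher ones, where 23.9% and 24.0% of all genes were. The 13 were Mcm3, Mcm10, Gins2, Orc1, Rfc1, Pola1, Prim2, Pold1, Tyms, Tk1, Lig1, Fen1 and Rpa2, and the 3 were Ccne1, Ccne2 and E2f1. Without Ebf1-KO replicate 2, 8 were lower, the call of Prim2 among those lost (limma adjusted p = 0.0503). When scaled as deposited, 2 were lower (Orc1 and Pold1) and 2 higher (Ccne1 and Ccne2), where 13.3% of all genes were lower and 17.5% higher, and the largest differences kept close values, with Pold1 at -0.60, Orc1 at -0.53 and Ccne1 at 0.68. Of the 13 genes called lower in Ebf1-KO but not in Pax5-KO against WT, 7 differed between the knockouts themselves (Mcm10, Gins2, Orc1, Rfc1, Prim2, Tk1 and Rpa2) and 6 did not (Mcm2, Mcm4, Mcm5, Mcm7, Chaf1a and Rpa3).

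Ratios of 2 genes within a library do not depend on the scaling, and 10 pairs of partners, chosen after their values were seen and given with no test, showed which partners changed unequally. Rrm2 per Rrm1 was 0.461, 0.493 and 0.488 in Ebf1-KO, 0.396, 0.411 and 0.403 in Pax5-KO, against 0.680, 0.932 and 0.858 in WT, without overlap of any 2 genotypes. Pold1 per Pold2 was 0.976, 0.884 and 0.831 in Ebf1-KO, 2.01, 1.65 and 1.66 in Pax5-KO, against 2.27, 1.74 and 1.82 in WT. Here Ebf1-KO stood apart and Pax5-KO overlapped WT, and the same held for Orc1 per Orc2 (means 0.287, 0.395 and 0.416). Lig1 per Fen1 was 2.93, 2.98 and 2.61 in Ebf1-KO, 2.82, 3.21 and 2.80 in Pax5-KO, against 5.54, 5.77 and 5.66 in WT. Both knockouts overlapped there and lay apart from WT, as they did for Pole per Pole2 (means 2.24, 2.43 and 3.84) and Pola1 per Pola2 (means 2.23, 2.55 and 4.04). Rfc3 per Rfc2 stepped through the 3 genotypes without overlap (means 0.518, 0.691 and 1.12), and Ccne1 per Ccne2 was above WT in both knockouts (means 0.37, 0.316 and 0.193). Prim1 per Prim2 was lowest in Pax5-KO (means 2.97, 2.51 and 2.87), and Chaf1a per Chaf1b overlapped in all 3 genotypes (means 2.08, 2.11 and 2.15).

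**Figure D3:**
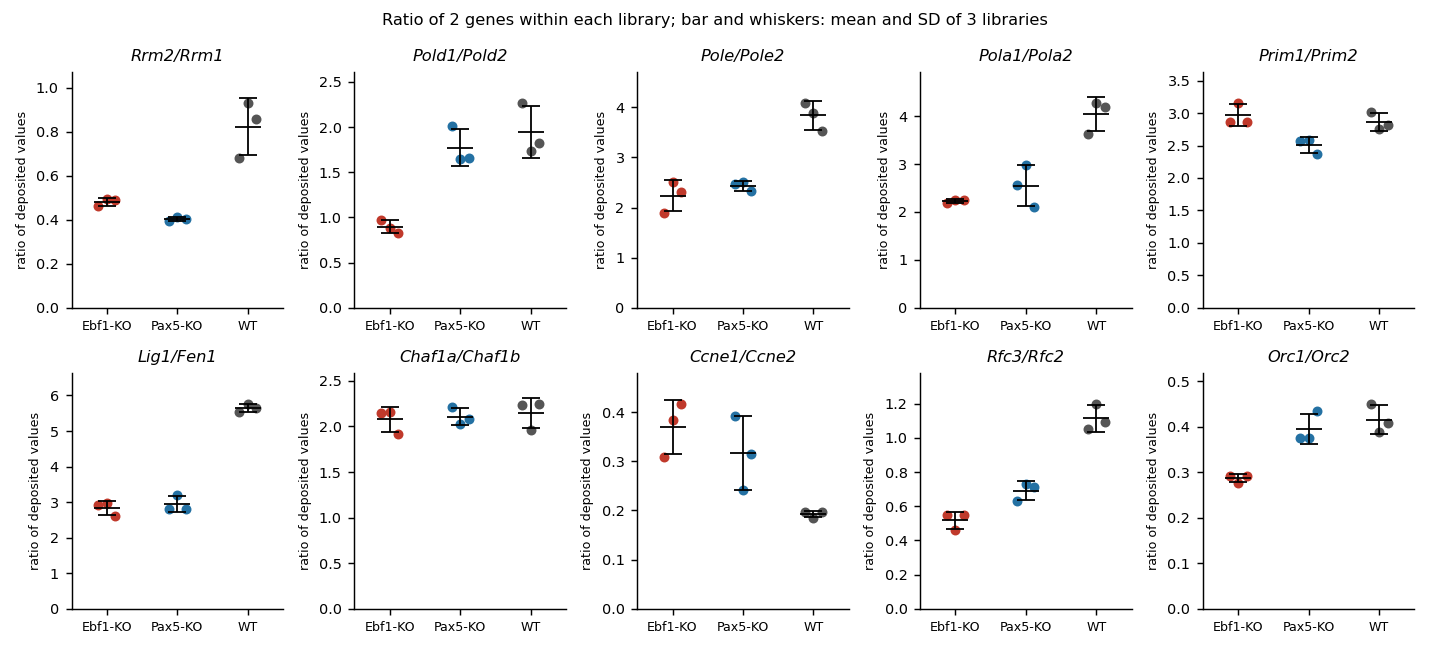
Ratio of 2 genes within each RNA library (y axis, ratio of deposited values, not divided by length) for 10 pairs, with the mean and SD of 3 libraries in Ebf1-KO, Pax5-KO and WT from left to right. Lig1 per Fen1 averages 2.84 in Ebf1-KO, 2.94 in Pax5-KO and 5.66 in WT, while Chaf1a per Chaf1b overlaps in all 3.

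Per length, the levels within a complex were uneven. In the MCM ring Mcm6 was highest and Mcm5 lowest in each genotype, at 133.7 and 40.1 CPM per kb in Ebf1-KO, 148.5 and 44.4 in Pax5-KO, against 147.3 and 49.1 in WT. Among GINS subunits Gins2 was 10.9 times Gins3 in Ebf1-KO, 14.1 times in Pax5-KO and 11.5 times in WT. For ribonucleotide reductase the order turned: Rrm1 was above Rrm2 in Ebf1-KO (96.7 and 85.3 CPM per kb) and Pax5-KO (102.8 and 76.1), and below it in WT (126.2 and 189.8). Rrm2 thus ranked 5 of 45 in Ebf1-KO, 9 in Pax5-KO and 2 in WT, and E2f1, Ccne1 and Gins3 were among the 5 lowest in each genotype. Across libraries the members moved together slightly: replicate 3 was the highest library of its genotype for 37 of the 45 genes in Ebf1-KO, 27 in Pax5-KO and 22 in WT, and replicate 3 was also the most deeply read library of each genotype. The part of depth in this was not tested. The 45 genes took 0.491 to 0.535% of exon reads in Ebf1-KO, 0.541 to 0.565% in Pax5-KO and 0.650 to 0.668% in WT, so the 3 genotypes did not overlap in this share of exon reads. The exon share of mapped reads itself differed between libraries. Whether the genotypes stay apart as a share of all mapped reads, the basis of the deposited scaling, is not given here.

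Around the 45 genes, 72 other S phase genes on 6 lists gave 44 lower and 7 higher in Ebf1-KO (median -0.33) and 32 lower and 6 higher in Pax5-KO (median -0.23), where 28.1% and 23.8% of all genes were lower. On the deposited scaling 13 were lower and 11 higher in Ebf1-KO (median -0.004) and 14 lower and 9 higher in Pax5-KO (median 0.04). Of all genes, 14.4% were lower and 40.8% higher in Ebf1-KO on that scaling, and 11.9% and 34.7% in Pax5-KO. Between the knockouts 10 were lower (17 with the replicate block) and 14 higher. Of all genes, 19.6% were lower (23.9% with the block) and 20.3% higher there, so these counts were not above the background. Among E2F and pocket proteins 7 of 12 were lower in each knockout, among S phase kinases and inhibitors 7 and 6 of 11, among other replisome and origin proteins 12 and 9 of 21, in nucleotide supply 8 and 5 of 13, in chromatin copying 7 and 5 of 8, and in replication stress signalling 3 and 0 of 7, with Ebf1-KO before Pax5-KO; on the deposited scaling these were 5 and 6, 3 and 3, 1 and 2, 2 and 2, 2 and 1, and 0 and 0.

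The largest changes on these lists were in E2F regulators, in a cyclin kinase inhibitor and in nucleotide enzymes. E2f2, an activating E2F, had 46.5, 45.6 and 42.5 CPM in Ebf1-KO, 27.3, 30.3 and 34.2 CPM in Pax5-KO, and 255.4, 245.3 and 248.3 CPM in WT, a fall of 2.48 and 3.03 on the log2 scale (limma adjusted p = 2.69e-10 and 1.15e-10). E2f2 thus stood far below WT in every knockout library, while E2f1 was higher in Ebf1-KO and overlapped WT in Pax5-KO. The repressive E2f7 (-2.34 and -1.73) and E2f8 (-1.20 and -1.26) and the pocket protein gene Rb1 (-0.57 and -1.95) were also lower in both, though Rb1 in Ebf1-KO was not called on the deposited scaling (-0.24). The members of that list called higher, named after their values were seen, were E2f6, a repressive E2F (1.90 and 1.21), and in Ebf1-KO the pocket protein gene Rbl2 (0.88, and 0.02 in Pax5-KO). E2f5 was lower in Ebf1-KO than in Pax5-KO (-1.15). Cdkn1a, encoding the inhibitor p21, had 593.0, 292.9 and 259.1 CPM in Ebf1-KO, 124.6, 129.7 and 144.6 CPM in Pax5-KO, and 33.4, 32.1 and 27.5 CPM in WT. The 3 genotypes did not overlap and Ebf1-KO replicate 1 was far above its group, with log2 fold changes of 3.52 and 2.10 against WT (limma adjusted p = 6.89e-08 and 1.18e-05) and 1.42 between the knockouts. Cdkn1b, encoding the inhibitor p27, was lower in both (-0.84 and -1.25). Cdkn1c, another inhibitor of this family, had 19 reads in all in Ebf1-KO, 0 in Pax5-KO and 71 in WT, so with 3 counts over the group as the floor it was at least 34.7-fold lower in Pax5-KO than in WT and at least 8.14-fold higher in Ebf1-KO than in Pax5-KO; the median of the 72 genes was the same with Cdkn1c at these bounds.

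Of nucleotide enzymes, Samhd1, which degrades deoxynucleotides, rose by 2.90 and 2.42 on the log2 scale (221.3 to 293.1 CPM in Ebf1-KO, 178.6 to 199.5 CPM in Pax5-KO and 33.4 to 37.5 CPM in WT). Rrm2b, the alternative small subunit of ribonucleotide reductase, was at -2.27 and -2.36. Dna2, a nuclease of flap processing, was lower in Ebf1-KO than in Pax5-KO (-1.15) and than in WT (-1.15), and was at 0.00 in Pax5-KO against WT. Of 16 mitosis genes, 14 were lower and 0 higher in each knockout (medians -0.58 and -0.55), where 28.1% and 23.8% of all genes were lower. On the deposited scaling 6 were lower in each (medians -0.26 and -0.28), where 14.4% and 11.9% of all genes were. Between the knockouts 2 were lower and 2 higher, with a median of 0.02, where 19.6% and 20.3% of all genes were.

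**Figure D4:**
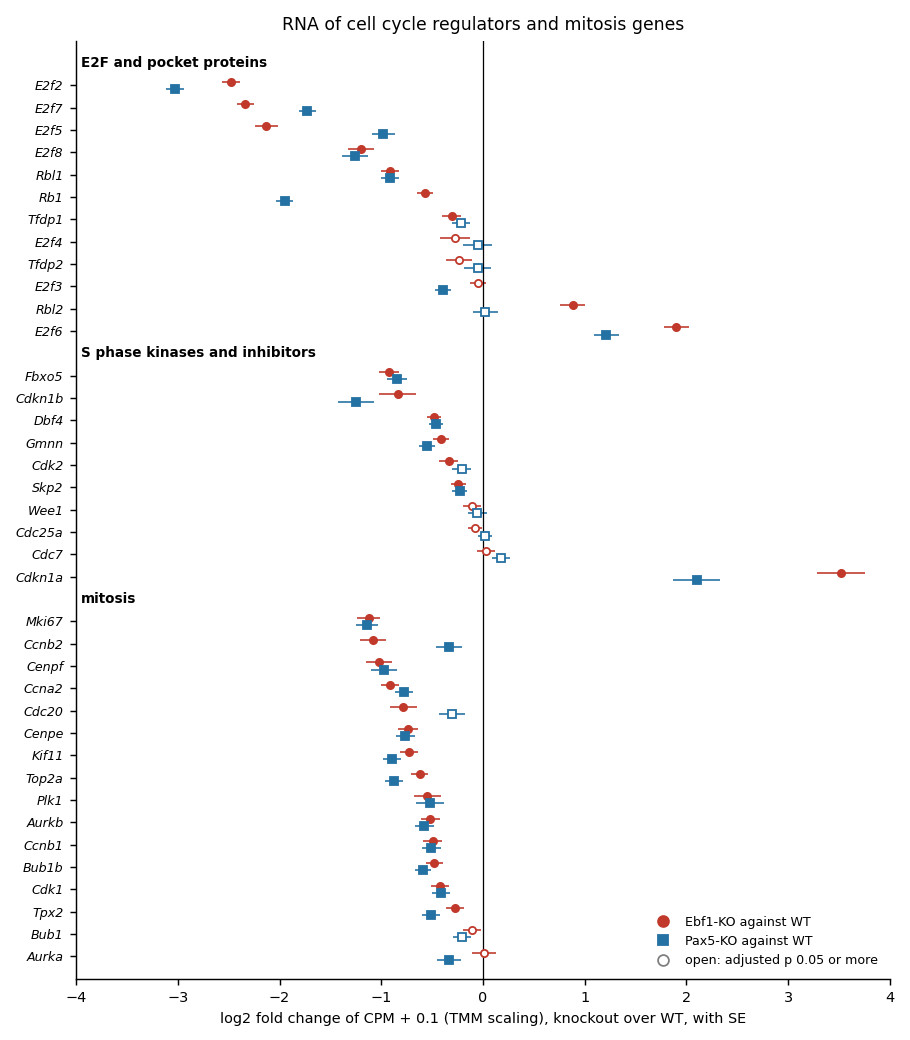
Log2 fold change (x axis, CPM + 0.1, TMM scaling, with SE) of E2F and pocket protein genes, S phase kinases and inhibitors, and mitosis genes in Ebf1-KO against WT (circles) and Pax5-KO against WT (squares), with open symbols for an adjusted p of 0.05 or more; Cdkn1c, at 0 in Pax5-KO, is left out. Cdkn1a reaches 3.52 and 2.10 and E2f2 -2.48 and -3.03, and 14 of 16 mitosis genes were lower in each knockout, against 6 on the deposited scaling.

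Accessible chromatin was read at regions bound by EBF1, PAX5 or both in published ChIP-seq, which the authors annotated to the nearest gene. Of 14377 regions, 31 had 1 of the 45 genes as the nearest, spread over 23 genes: 19 bound by EBF1 only, 7 by PAX5 only and 5 by both. On the deposited scaling 18 of the 31 lost signal in Ebf1-KO against WT and 0 gained, where 52.6% of all 13869 regions tested were lower and 3.40% higher (limma adjusted p under 0.05). In Pax5-KO 21 were lower and 1 higher, where 53.1% and 2.14% of all regions were. Between the knockouts 5 were lower and 1 higher in Ebf1-KO, where 13.2% and 9.44% of all regions were. The median log2 fold changes of signal + 1 were -0.92 and -1.0 at these genes and -0.82 and -0.77 over all regions, so the share at the replication genes was near the background. With TMM over all regions the medians at these genes were -0.16 and -0.11, with 10 lower and 5 higher in Ebf1-KO, against 8 lower and 2 higher in Pax5-KO. All 13869 regions then had medians of -0.11 and 0.03, with 4247 lower and 2946 higher in Ebf1-KO, against 3018 and 2038 in Pax5-KO. Under the deposited scaling, TMM and quantile normalization alike, 8 of the 31 regions were lower in Ebf1-KO and 7 in Pax5-KO. The share over all regions for this is not given here.

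Those lower in both knockouts under all 3 scalings were at Orc1, Rrm2, Rfc3 and, 387756 and 106363 bases from its start site, Prim2. At the Rrm2 intron region (chr12:24709430-24709678, mm10, bound by PAX5 only, 1300 bases past the start site) the signal was 1.95, 4.54 and 4.16 in Ebf1-KO, 4.94, 3.71 and 2.17 in Pax5-KO, against 33.3, 11.7 and 22.3 in WT. All knockout libraries lay below all WT libraries, at -2.30 (limma adjusted p = 2.06e-09) and -2.28 (limma adjusted p = 4.34e-09). At the Orc1 intron region (chr4:108587681-108587951, bound by EBF1 only, 8362 bases past the start site) it was 1.17, 0.00 and 0.64 in Ebf1-KO, 1.76, 0.80 and 1.74 in Pax5-KO, against 13.1, 8.55 and 11.7 in WT. That region lost signal in both knockouts (-2.97 and -2.32), whereas Orc1 RNA was lower in Ebf1-KO only. At the Rfc3 intron region bound by PAX5 only (chr5:151642995-151643243, 8089 bases past the start site) the signal was 7.01, 8.17 and 11.2 in Ebf1-KO, 5.29, 4.24 and 1.30 in Pax5-KO, against 34.6, 23.1 and 32.4 in WT. The 3 genotypes did not overlap, with Pax5-KO lowest (-1.67 and -2.85 against WT, and 1.19 in Ebf1-KO against Pax5-KO, limma adjusted p = 0.00132); that last call was lost without Pax5-KO replicate 3, when 0 of the 31 regions were higher, and 3 and 2 were without replicates 1 and 2.

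Regions bound by both factors at Pold1 and Gins2 separated the knockouts. At Pold1 (chr7:44547789-44548114, 864 bases past the start site) the signal was 6.62, 3.33 and 4.48 in Ebf1-KO, 15.9, 14.3 and 9.12 in Pax5-KO, against 26.8, 26.8 and 26.2 in WT, in the same order as Pold1 RNA. The log2 fold changes were -2.29 (limma adjusted p = 1.55e-11) and -1.0 (limma adjusted p = 0.00134) against WT and -1.29 in Ebf1-KO against Pax5-KO (limma adjusted p = 0.000173); with TMM the second was -0.10 and not called. At Gins2 (chr8:120571612-120571892, 17323 bases past the start site) it was 4.67, 2.12 and 2.56 in Ebf1-KO, 18.7, 13.8 and 7.38 in Pax5-KO, against 19.6, 13.1 and 15 in WT. Ebf1-KO lay below both other groups (-2.07 against WT and -1.76 against Pax5-KO), and Pax5-KO overlapped WT. The Tyms region bound by both (chr5:30071719-30072038, 1747 bases past the start site) lost signal in both knockouts on the deposited scaling (-1.62 and -2.41), and with quantile normalization its Ebf1-KO call was lost (-0.32, limma adjusted p = 0.457). The Rpa1 region bound by PAX5 only, 4079 bases past the start site, was at -1.67 and -2.11, and there too the Ebf1-KO call was lost with quantile normalization (limma adjusted p = 0.259). The Mcm5 region bound by PAX5 only was at -0.94 and -1.72. In Ebf1-KO it was not called with TMM (-0.16) or quantile normalization (0.37), and in Pax5-KO quantile normalization ended the call (limma adjusted p = 0.0604).

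Prim2 had 5 such regions, 73549 to 387756 bases from its start site. The farthest (chr1:33281868-33282209, bound by both) had 1.56, 1.51 and 1.28 in Ebf1-KO, 2.47, 2.12 and 1.30 in Pax5-KO, against 82.3, 44.4 and 60.6 in WT, the largest change at any of the 45 genes (-4.65 and -4.40). Prim2 RNA changed by -0.44 and -0.14, and the assignment of so distant a region to Prim2 is by nearest start site only. At 2 others, 106363 and 73549 bases away, the log2 fold changes were -3.25 and -2.51 in Ebf1-KO, -2.18 and -1.17 in Pax5-KO, with -1.07 and -1.34 between the knockouts. The Pax5-KO value of the nearer one was not called with TMM (-0.28) or quantile normalization (-0.17). The region 222438 bases away was higher in Pax5-KO than in WT (0.86, limma adjusted p = 0.0121; not called without WT replicate 3) and lower in Ebf1-KO than in Pax5-KO (-0.90).

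Of the 9 regions within 1000 bases of a start site 3 were called lower in Ebf1-KO and 6 in Pax5-KO, while of the 22 farther ones 15 were in each. Of all regions that near a start site 26.1% were lower in Ebf1-KO and 48.3% in Pax5-KO. For all farther ones these shares were 58.5% and 54.2%. With TMM, 1 of the 9 (Pold1) was lower in Ebf1-KO and 0 in Pax5-KO, where 7.38% and 5.70% of all near regions were. The Gins2 promoter region (chr8:120589059-120589329, bound by EBF1 only) had the highest signal of the 31, with 37, 42.4 and 46.1 in Ebf1-KO, 34.9, 35.3 and 34.3 in Pax5-KO, against 84.3, 51.9 and 55.9 in WT. It was called lower in Pax5-KO (-0.83) and not in Ebf1-KO (-0.57, limma adjusted p = 0.0625), and with TMM it was at 0.11 and 0.32, not called. The Mcm7 promoter region was not called on the deposited scaling (0.39 and -0.20) and was called higher in both knockouts with TMM (1.25 and 0.69). With TMM the promoter regions of Rrm1 (0.82) and Rfc4 (0.68) were also called higher in Ebf1-KO, where the deposited scaling called neither. That made 3 of the 9 near regions higher in Ebf1-KO and 1 in Pax5-KO with TMM. Of all near regions 45.1% and 18% were, so these gains were not particular to the replication genes.

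**Figure D5:**
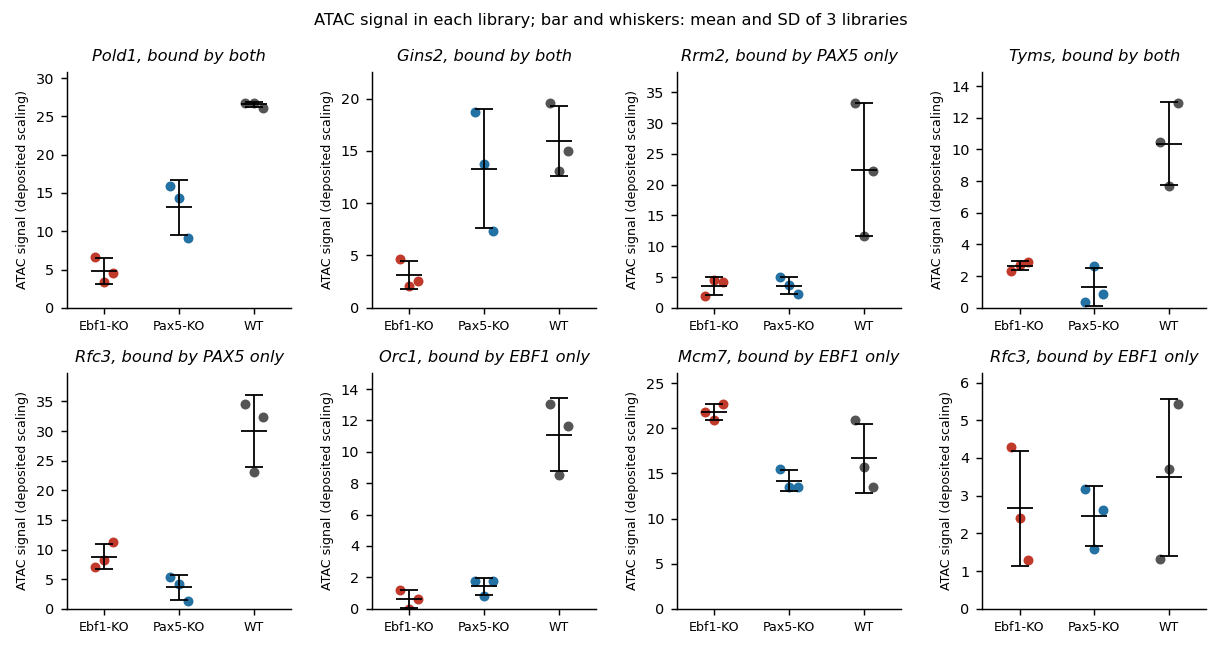
ATAC signal (y axis, deposited scaling) in each of the 9 ATAC libraries at 8 bound regions near replication genes, with the mean and SD of 3 libraries in Ebf1-KO, Pax5-KO and WT from left to right. The Pold1 region lies at 3.33 to 6.62 in Ebf1-KO, 9.12 to 15.9 in Pax5-KO and 26.2 to 26.8 in WT, while the Mcm7 region was not called.

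Bound regions were scanned for the EBF1 palindrome of TCCC and GGGA with any 2 bases between them, which reads the same on both strands. It was in 5 of the 19 regions bound by EBF1 only (26.3%, against 27.2% of all 7810 such regions), in 0 of the 7 bound by PAX5 only (0.775% of all 5033) and in 1 of the 5 bound by both (14.1% of all 1529). The regions are 271 bases long for EBF1, 249 for PAX5 and 271 to 519 for both. The PAX5 words GCGTGAC or GCATGAC, on either strand, were in 1 of the 7, at Rpa1 (12.9% of all such regions), and in none of the 24 others. The sequences below (GRCm38.p6, plus strand, palindromes in capitals) are the central 300 bases of the Pold1 region, which holds 1 palindrome and separated the knockouts; the Rfc3 region bound by EBF1 only (chr5:151641620-151641890), which holds 2 palindromes and was not called (-0.26 and -0.28); and the Rrm2 region, which holds neither word and lost signal in both knockouts.
Pold1 region, chr7:44547802-44548101: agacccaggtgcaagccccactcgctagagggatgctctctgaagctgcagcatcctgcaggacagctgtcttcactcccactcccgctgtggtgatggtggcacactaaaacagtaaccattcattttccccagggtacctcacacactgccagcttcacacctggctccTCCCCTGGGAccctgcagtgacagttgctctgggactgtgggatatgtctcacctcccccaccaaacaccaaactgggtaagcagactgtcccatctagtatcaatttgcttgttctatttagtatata
Rfc3 region: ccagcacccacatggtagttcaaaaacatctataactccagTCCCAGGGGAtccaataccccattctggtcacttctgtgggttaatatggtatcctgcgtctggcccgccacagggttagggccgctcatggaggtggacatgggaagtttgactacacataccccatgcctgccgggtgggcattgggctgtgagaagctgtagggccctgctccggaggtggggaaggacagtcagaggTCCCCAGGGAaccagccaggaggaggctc
Rrm2 region: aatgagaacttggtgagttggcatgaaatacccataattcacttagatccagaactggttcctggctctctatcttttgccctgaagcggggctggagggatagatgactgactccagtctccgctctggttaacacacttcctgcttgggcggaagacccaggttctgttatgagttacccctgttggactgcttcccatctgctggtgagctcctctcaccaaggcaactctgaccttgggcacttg
RNA of the 16 genes with a bound region within 10000 bases of the start site was lower for 13 and higher for 1 in Ebf1-KO against WT (median -0.52), and of the 29 others for 14 and 2 (median -0.20). Of all genes with such a region 33.5% were lower, and of those with none 25.9%. In Pax5-KO it was lower for 10 and higher for 0 of the 16 (median -0.33), and for 7 and 1 of the 29 (median -0.06), where 28.7% and 21.9% of all such genes were lower. Scaled as deposited, 6 of the 16 and 1 of the 29 were lower in Ebf1-KO, where 19.1% and 12.5% of all such genes were, and 2 and 1 in Pax5-KO, where 15.3% and 10.5% were. These are counts with no test.

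The authors' deposited table of genes lower in Ebf1-KO than in WT holds 3 of the 45 genes, Lig1, Pold1 and Rrm2, with log2 fold changes of -1.15, -1.07 and -1.14 in the authors' deposited table. The authors' deposited table for Pax5-KO holds 1 of them, Rrm2 (-1.30). The 45 genes are absent from the authors' deposited tables of higher genes. The smallest fall listed for a member was -1.07, and Tyms (-0.96) and Pola1 (-0.93), called lower in Ebf1-KO above, are absent. Whether the authors' tables were limited by size of change was not tested, so these counts cannot be compared with the calls above. The listed values lay near those with TMM (Lig1 -1.17, Pold1 -1.08, Rrm2 -1.15, and Rrm2 -1.31 in Pax5-KO). On the deposited scaling these were -0.84, -0.75, -0.82 and -1.04.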

How the data were processed

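RNA and open chromatin were measured in 9 RNA-seq and 9 ATAC-seq libraries, 3 per genotype and assay, from single reads (76 cycles for RNA, per the labels). Per the file headers, the authors counted exon reads per gene with HOMER and deposited them as a signal scaled to 10000000 mapped reads; the submitters' processing notes name TopHat, Bowtie2, edgeR, DESeq2 and mm10 without versions. Dividing by the value of 1 read gave whole reads (within 0.1) for 100.0% of values in each library. The 24072 genes were rescaled to CPM over exon reads with TMM, filtered with edgeR's filterByExpr, and tested as log2(CPM + 0.1) with limma-trend in 1 fit over all 9 libraries, with Benjamini-Hochberg adjustment over 12839 genes and a threshold of 0.05. Count tests on the recovered reads served as alternatives: edgeR's quasi-likelihood test called 3809 genes higher and 3570 lower in Ebf1-KO against WT, 3350 and 3051 in Pax5-KO against WT, and 2626 and 2558 in Ebf1-KO against Pax5-KO. Fold changes of low genes are understated on this scale.

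ATAC signal at bound regions was deposited by the authors scaled to 10000000 tags per library, per the file headers (15307490 to 38617492 tags). It was tested as log2(signal + 1) with limma-trend on the deposited scaling for the 13869 of 14377 regions with a summed signal of at least 10. The peak score in the same deposited files was not used in a test. The authors' deposited log2 fold changes and adjusted p-values come from HOMER's differential expression script, per the file headers, and are knockout over WT.

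Same-numbered RNA libraries deviated together (correlations of deviations from the group means 0.115 to 0.4 over 9 pairs, against -0.326 to 0.0267 for other pairs). This link was found in the data and is not stated in the labels. The main fit did not use it, so the main calls and p-values ignore this pairing, and only the replicate block takes it into account. Same-numbered ATAC libraries did not deviate together (-0.0523 to 0.112). Alternatives were the deposited scaling, quantile normalization, DESeq2, edgeR, other pseudocounts and filters, the replicate block, only the libraries of the 2 groups compared, and each library left out. The fit was tested on simulated data with known changes. It called 43.3% of 1.5-fold changes in each comparison and 65.7 to 82.1% of 2-fold changes, and 4.23 to 8.18% of its calls were false. Far fewer genes changed there than were called in the data, so these shares may differ here. A gene not called cannot be taken as unchanged. Per-library values are given for the defining members of each role and the 3 largest rises and falls per comparison, and on the related lists the 4 largest changes per comparison and key regulators are named, of which 1 is not reported here. The members and lists were chosen with earlier results of these data known. Promoter and region sequences and the exons used for overlaps are from RefSeq, GRCm38.p6. Tests ran in limma 3.58.1, DESeq2 1.42.0 and edgeR 4.0.16 under R 4.3.3, and tables and figures were made under Python 3.11.15 with pandas 2.3.3, matplotlib 3.10.9, SciPy 1.17.1 and NumPy 2.4.6.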

Additional observations from a re-analysis of the deposited data

How the results depend on the processing

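The scaling decided most. On the deposited scaling, 6 members were higher and 7 lower in Ebf1-KO against WT, 4 and 3 in Pax5-KO against WT, and 2 lower between the knockouts, with 1855 and 1525 of all genes lower against WT. The log2 fold changes of Mcm4 (0.14), Mcm5 (0.032), Mcm7 (0.063), Mcm10 (0.017), Rfc1 (0.11), Tk1 (0.016) and Chaf1a (0.078) in Ebf1-KO and of Pole (0.001) in Pax5-KO changed sign and none of them passed. This scaling divides by all mapped reads, and the exon share of mapped reads was higher in every Ebf1-KO library than in WT but overlapped between Pax5-KO and WT. Of the member calls, 27 of 30, 17 of 18 and 15 of 16 held under every alternative with all libraries other than this scaling, and 10, 4 and 4 with it. With the replicate block, 2 members were higher in Pax5-KO than in WT and 5 in Ebf1-KO than in Pax5-KO, and beside the members named with the block above it changed no other member call. No ATAC count moved by over 1.5 times with it.

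For ATAC at the members in Ebf1-KO against WT, TMM gave 5 higher and 10 lower, quantile normalization 5 and 9, and a mean signal of at least 5, which left 18 regions, 10 lower. Over all regions these gave 2946, 3847 and 408 higher and 4247, 3109 and 4424 lower. In Pax5-KO against WT, TMM gave 2 higher and 8 lower and quantile normalization 4 and 7 at the members, and over all regions TMM, quantile normalization and the stricter filter gave 2038, 3216 and 191 higher, with 3018 lower for TMM and 2738 lower for quantile normalization. Between the knockouts, TMM and quantile normalization gave 3 and 4 member regions higher. The cause was not tested.

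Leaving out 1 library gave 20 to 31 members lower in Ebf1-KO, 15 to 19 in Pax5-KO and 8 (without Ebf1-KO replicate 2) to 14 between the knockouts. At member regions it gave 0 (without WT replicate 3) to 1 higher in Pax5-KO and 0 to 3 higher in Ebf1-KO than in Pax5-KO, and over all regions 662 (without Ebf1-KO replicate 3) to 1667 higher between the knockouts, with 867 without Ebf1-KO replicate 2 or Pax5-KO replicate 2 and 824 without Pax5-KO replicate 3. The share of promoters with an E2F word was 27% in a window from 100 bases before the start site to 50 after it. The 3 libraries per group limit the precision.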
